A study of Mus musculus with 9 samples.

Results

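Before TNF treatment, the antibody against RelA gave 315 sites in Nfkb2-/- mouse embryonic fibroblasts (MEFs). Of these, 166 (52.7%) lay within 50 kb of the start of a listed developmental regulator, against 3.22% and 3.08% of the anti-RelA peaks at 6 h. Counted over genes, 93 of the 524 listed regulators (17.7%) had a site at that distance, beside 1.03% of all protein-coding genes. The list was compiled with earlier results of these data known. None lay within 50 kb of the 72 listed NF-κB response genes, a count near the background, since 1.03% of all protein-coding genes had a site at that distance. The sites were chosen by peak calling itself. All peaks of the 2 anti-RelA libraries at 0 h, 182 in replicate 1 and 194 in replicate 2, were taken, and those sharing 1 bp or more were joined into a single site. These 376 peaks were part of 25055 peaks in the 8 lists analysed. The false discovery rate (FDR), the fold over input and the read numbers at 0 h therefore selected the sites, and they are given as a description with no test.

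ChIP-seq was performed in Nfkb2-/- MEFs at 0 h (no TNF) and at 6 h of 10 ng/ml TNF, with antibodies against RelA (p65) and RelB and 2 libraries per group. All 4 groups carried the Nfkb2-/- genotype, so every library, the untreated ones included, came from cells that lack the NF-κB precursor p100 and its product p52. The MEFs were a line immortalised by serial passage, and nothing in the labels says whether replicates were separate cultures, so p-values measure only the spread between these libraries, which may be technical. All 8 lists were called against the same Nfkb2-/- input. Libraries from wild-type cells or from cells without RelA were not analysed here.

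RelA is the NF-κB subunit that carries most of the transcriptional activity induced by TNF. In resting cells inhibitory IκB proteins hold it in the cytoplasm, and after TNF the IκB proteins are degraded and RelA enters the nucleus, where it binds κB sites near genes for chemokines, cytokines and NF-κB inhibitors. Untreated cells hold little RelA in the nucleus. Many developmental regulators, among them homeobox, forkhead and T-box genes, lie in long CpG-rich domains and are silent in many differentiated cell types.

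Sequences from 7 of the sites show the base composition that the results below turn on. Each is the central stretch of a site on the plus strand of mm9, with CG dinucleotides in capitals. The first 4 hold many CG dinucleotides, Alx1 and Nkx2-3 hold fewer although they are among the sites with most reads, and the last is a site on chromosome Y that has near-identical copies elsewhere and no CG.
Tlx3, chr11:33100463-33100703: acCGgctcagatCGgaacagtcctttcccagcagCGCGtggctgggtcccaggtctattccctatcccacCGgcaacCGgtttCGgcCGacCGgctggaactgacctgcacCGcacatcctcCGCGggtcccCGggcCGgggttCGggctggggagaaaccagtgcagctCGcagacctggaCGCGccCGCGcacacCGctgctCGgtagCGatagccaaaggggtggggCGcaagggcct
Otx1, chr11:21893849-21894089: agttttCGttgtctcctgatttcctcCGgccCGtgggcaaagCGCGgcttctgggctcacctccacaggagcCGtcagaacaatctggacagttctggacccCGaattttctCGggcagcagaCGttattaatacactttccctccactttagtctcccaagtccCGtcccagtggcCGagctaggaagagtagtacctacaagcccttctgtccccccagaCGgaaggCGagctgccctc
Tlx2, chr6:83020675-83020915: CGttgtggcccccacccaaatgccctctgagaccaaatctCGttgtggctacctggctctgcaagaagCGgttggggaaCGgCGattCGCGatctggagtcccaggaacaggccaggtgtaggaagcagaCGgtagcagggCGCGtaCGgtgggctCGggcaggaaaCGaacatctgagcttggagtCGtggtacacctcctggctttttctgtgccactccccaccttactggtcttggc
Lhx8, chr3:153992469-153992709: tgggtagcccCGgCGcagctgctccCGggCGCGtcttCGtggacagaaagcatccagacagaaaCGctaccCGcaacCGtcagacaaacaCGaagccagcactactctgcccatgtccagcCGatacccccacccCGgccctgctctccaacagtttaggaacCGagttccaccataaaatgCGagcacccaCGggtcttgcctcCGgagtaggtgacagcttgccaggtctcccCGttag
Alx1, chr10:102490049-102490289: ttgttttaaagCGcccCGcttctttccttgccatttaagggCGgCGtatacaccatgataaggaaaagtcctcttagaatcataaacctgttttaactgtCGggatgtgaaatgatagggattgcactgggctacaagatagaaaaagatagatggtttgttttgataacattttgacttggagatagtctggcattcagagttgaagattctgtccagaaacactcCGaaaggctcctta
Nkx2-3, chr19:43682497-43682737: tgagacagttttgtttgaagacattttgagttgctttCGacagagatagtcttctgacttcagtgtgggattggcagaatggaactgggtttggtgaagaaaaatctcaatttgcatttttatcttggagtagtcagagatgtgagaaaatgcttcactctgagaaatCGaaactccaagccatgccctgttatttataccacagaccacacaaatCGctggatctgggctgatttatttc
Chromosome Y site, chrY:2868474-2868714: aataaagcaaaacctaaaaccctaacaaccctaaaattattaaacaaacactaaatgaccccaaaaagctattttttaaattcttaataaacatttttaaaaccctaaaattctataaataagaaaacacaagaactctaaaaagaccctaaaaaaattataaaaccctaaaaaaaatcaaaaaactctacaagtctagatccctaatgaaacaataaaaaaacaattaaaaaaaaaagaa
The Tlx3 stretch held 24 CG dinucleotides in 241 bases, Lhx8 held 17, Tlx2 held 14 and Otx1 held 13. The Alx1 stretch held 6 and Nkx2-3 held 3. None of these stretches overlapped an annotated exon, and the Otx1, Tlx2 and Nkx2-3 sites were intergenic or upstream of the gene.

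Each 0 h peak rested on few reads. The median was 17 ChIP reads in replicate 1 and 18 in replicate 2, with a lowest value of 13 in both and highest values of 70 and 102. The input held a median of 6 reads in the peaks of replicate 1 and 5 in those of replicate 2. ChIP and input reads rose together across peaks (Spearman's rho = 0.745 over 182 peaks and 0.79 over 194), so that the tallest peaks also had the most input reads. These correlations are across peaks of 1 library that share an input, and are given with no p. The shortest length, 29 bp, was that of 49 peaks in replicate 1 and 66 in replicate 2.

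**Figure D1:**
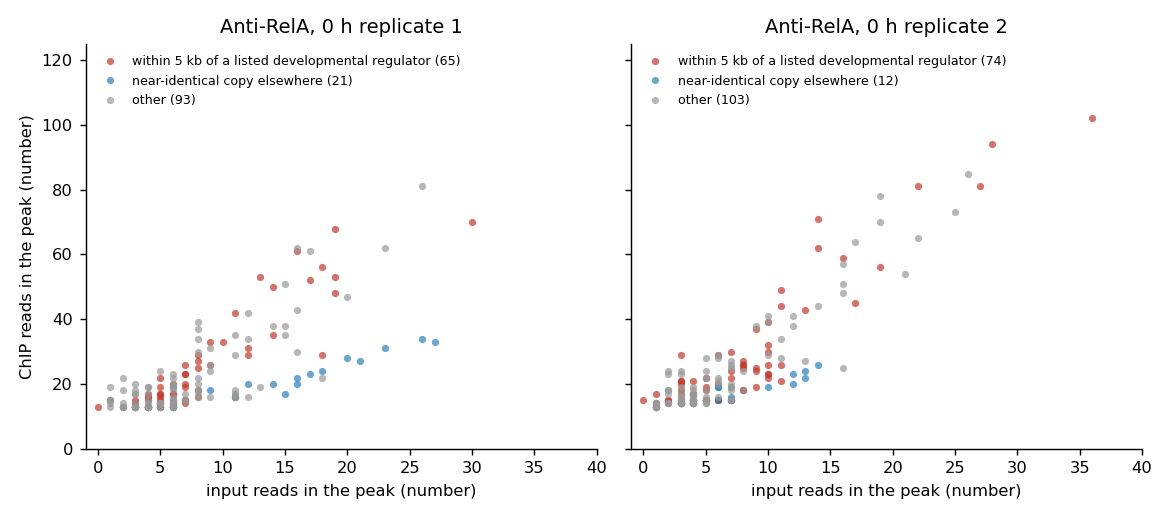
ChIP reads (vertical axis, number) against input reads (horizontal axis, number) in the peaks of each 0 h anti-RelA library, 1 point per site, with peaks of 1 library in the same site summed. Sites within 5 kb of a listed developmental regulator are red, sites with a near-identical copy elsewhere in the genome are blue and all others are grey, and the blue points have fewer ChIP reads for their input reads.

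Of the 315 sites, 53 (16.8%) were called in both 0 h libraries. Another 126 were called in replicate 1 only and 136 in replicate 2 only. As shares of each list, 56 of 182 peaks (30.8%) overlapped the other replicate, and 58 of 194 (29.9%) did so in return. Peaks often lay side by side without touching. Of 98 neighbouring pairs separated by 500 bp or less, 66 were of different replicates and 32 of the same one, and when peaks within 500 bp were merged the share of sites with both libraries was 28.4%. The smallest overlap that was merged was 4 bp, in a group of sites on chromosome 6, and the smallest gap that was not was 1 bp, at Foxi3. Sites of both libraries were longer (median 432 bp against 30 bp) and held more ChIP reads (medians of 31 and 27 against 15 and 16).

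Where both libraries called a site, the difference of their log2 folds over input had a SD of 0.472 and ran from -1.03 to 1.71 (n = 53 sites). Replicate 1 was higher at 25 of them. Spearman's rho between the folds of the 2 libraries was 0.437 across these sites, given with no p. At the edge of the list, the 3 peaks of replicate 1 with the highest FDR (ties ordered by position) had an FDR of 0.0922, a log2 fold of 1.43, 16 ChIP reads and 11 or 12 input reads. They lay nearest A530032D15Rik, Ugt1a1 and Heatr7b1. In replicate 2 the 3 corresponding peaks had an FDR of 0.0927, a log2 fold of 1.69, 15 ChIP reads and 7 input reads, and lay nearest A530032D15Rik, Zic2 and Chi3l3. Peaks outside the threshold are not in the lists.

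Listed developmental regulators were frequent among the genes beside the sites. Of 22238 protein-coding genes in the GENCODE annotation of mm9, 99 (0.445%) had a 0 h anti-RelA site within 5 kb of the start. Of the 99, 57 were among the 524 genes of a list of developmental transcription factors and signalling genes, which is 10.9% of that list. Within 50 kb, 229 genes (1.03%) had a site, and 93 of the 229 were listed regulators (17.7% of the list). The list was compiled with earlier results of these data known, so its share is a description.

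Members of each family with a site within 5 kb were counted beside the 0.445% of all coding genes, and differences between families were not tested. Homeobox genes, which encode factors that pattern the body axis and specify cell types, gave 33 of 184 (17.9%). Zinc finger regulators gave 8 of 40 (20%), and all 8 were of the Zic, Sall, Osr and Prdm families. T-box genes gave 3 of 16 (Eomes, Tbr1 and Tbx20), GATA and Runx genes 2 of 12 (Gata4 and Gata6), forkhead genes 6 of 43, and Sox genes 2 of 18 (Sox2 and Sox21). Basic helix-loop-helix factors gave 2 of 46 (Olig3 and Tcf21), and the remaining transcription factors 1 of 24 (Tcfap2c). None of 141 developmental signalling genes (Wnt, Bmp, Fgf, Notch, ephrin and related families) had a site within 5 kb, which at this background is too short a list to set apart from all genes.

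NF-κB response genes were too few to be set apart from all genes at 0 h. None of the 72 NF-κB response genes, among them the IκB genes Nfkbia and Nfkbie, the chemokines Cxcl1 and Ccl2 and the adhesion genes Icam1 and Vcam1, had a 0 h anti-RelA site within 5 kb or within 50 kb of the start, and the shares over all protein-coding genes were themselves only 0.445% and 1.03%. At 6 h of TNF, 44 of the same 72 (61.1%) had an anti-RelA peak within 5 kb, beside 9.57% of all protein-coding genes. For the developmental regulators the 6 h figure was 103 of 524 (19.7%). None of the 10 AP-1, 80 histone, 81 ribosomal protein, 89 fibroblast matrix, 1094 olfactory receptor and 372 Zfp genes was within 5 kb of a 0 h site. At 50 kb, 2 matrix genes (Itgb7 and Loxl3, 2.25%) and 5 Zfp genes (1.34%) had one. Beside 0.445% and 1.03% of all coding genes, these counts are near the background for all but the olfactory receptor list, which had none at 50 kb either.

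**Figure D2:**
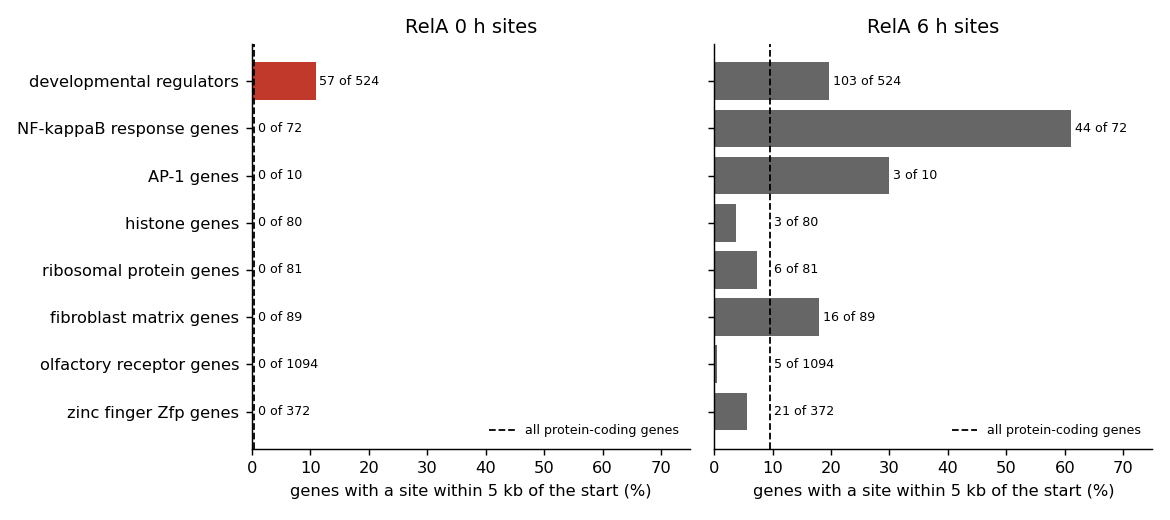
Share of each gene list (horizontal axis, %) with an anti-RelA site within 5 kb of the start, at 0 h (left) and at 6 h (right), both libraries pooled, with the number of genes beside each bar. The dashed line is the share of all protein-coding genes; at 0 h only the developmental regulators have a bar, and at 6 h the NF-κB response genes have the longest.

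Counted over genes, the share of listed regulators with an anti-RelA site was higher at 6 h than at 0 h, whereas counted over peaks it was lower. Of the peaks at 0 h, 35.7% in replicate 1 and 39.7% in replicate 2 lay within 5 kb of a listed developmental regulator, against 1.09% and 1.05% in the anti-RelA lists at 6 h. When the 6 h lists were shortened to their 182 and 194 best-ranked peaks, the shares were 0% and 0.515%. This measure was not tested, since the list was chosen with the pattern known. By this measure alone, sites seen in 1 library resembled those seen in both, with 97 of 262 (37%) and 21 of 53 (39.6%) within 5 kb of a listed regulator. They differed in others, with a near-identical copy elsewhere in the genome at 11.8% against 1.89%. A CpG-rich window, as defined below, lay within 2 kb of 72.1% against 88.7%.

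The site with most ChIP reads was at Tlx3, a homeobox gene that specifies excitatory neurons. It covered chr11:33104092-33104276, 504 bp upstream of the start and inside the noncoding gene Gm12116, whose start was nearest. It held 70 ChIP and 30 input reads in replicate 1 and 102 and 36 in replicate 2, with log2 folds of 2.71 and 3.42. At 6 h replicate 1 called it with 27 ChIP reads and a log2 fold of 2.46, and replicate 2 did not call it. A second site called in both libraries lay 2630 bp downstream of the Tlx3 start, with 50 and 24 ChIP reads. The related gene Tlx2 had a site 283 bp upstream, with 61 and 49 ChIP reads and log2 folds of 4 and 4.17. It too was called at 6 h in replicate 1 only (28 reads, log2 fold 3.81).

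Further homeobox genes had sites with many reads in both libraries. At Alx1, a gene of craniofacial mesenchyme, an intronic site of 930 bp began 1020 bp past the start and held 68 and 94 ChIP reads, with log2 folds of 3.03 and 3.37. At Alx4, its relative in limb and skull, an intronic site 4154 bp past the start held 56 and 43 reads. Lhx8, a LIM homeobox gene of the forebrain and germ cells, had 2 such sites, 598 bp past the start (53 and 44 reads) and 215 bp upstream (33 and 59 reads). Nkx2-3, a regulator of spleen and gut, had a site 4013 bp upstream with 53 and 62 reads and log2 folds of 3.70 and 4.09. Otx1, a forebrain gene, had the longest site, 1266 bp, with 81 and 64 reads and log2 folds of 4.09 and 3.91. It lay 8298 bp beyond the start and so fell outside the 5 kb limit.

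Among the forkhead genes, Foxl2, which maintains ovarian identity, had a site of 432 bp in an exon 2056 bp past the start. It held 52 and 81 ChIP reads over 17 and 22 input reads, with log2 folds of 3.43 and 3.81. Foxd4 had a site 2237 bp downstream of its start with 33 and 56 reads. Among the zinc finger genes, Prdm14, a factor of germ cells and pluripotent cells, had a site 212 bp past the start with 26 and 81 ChIP reads and log2 folds of 2.83 and 2.47.

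Some sites with many reads were called in 1 library only. The highest was at Sox2, a pluripotency and neural factor, where replicate 2 held 71 ChIP reads over 14 input reads in 29 bp, with a log2 fold of 4.70. Replicate 1 called peaks on both sides of it, with 18 and 29 reads, none of which overlapped it. A site 880 bp inside Prdm14 held 48 reads in replicate 1, an intronic Gata4 site held 48 in replicate 2, an intronic Emx1 site held 45 in replicate 2, and a site in Slc32a1, which encodes the vesicular GABA transporter, held 43 in replicate 1. At Slc32a1 replicate 2 called a separate peak of 34 reads a short way downstream.

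Sites formed clusters around single genes, where neighbouring calls that do not touch count separately. With peaks within 500 bp merged, 218 sites remained rather than 315. When sites within 20 kb were joined they gave 159 loci, of which 73 held 2 or more sites, and these 73 held 229 of the 315 sites (72.7%). A listed regulator lay within 5 kb of 37 of the 73 and of 20 of the 86 loci with a single site. Sim1, a hypothalamic transcription factor gene that the list did not hold, had 9 sites in 7371 bp with 284 ChIP reads over both libraries. Lhx8 had 6 sites in 2845 bp with 268 reads, and Isl2, a motor neuron gene, had 6 in 4287 bp with 153. At Sim1 the site with most reads was an intronic one of 532 bp, 7704 bp past the start, with 34 and 70 ChIP reads.

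Further genes with several sites were named after their values were seen, because they stood outside the list or the naming rule. Tal1, a regulator of blood formation, had 4 sites, 3 of them in both libraries, and the one with most reads held 47 and 27 ChIP reads. Dmbx1, a midbrain homeobox gene whose symbol the list did not hold, had 4 sites, 3 in both libraries, with 35 and 44 reads at the one with most. Sp9, a limb and forebrain factor, had 6 sites and Foxa1, a factor of endoderm, had 5. Nr5a1, which controls adrenal and gonadal development, had a 558 bp exonic site with 51 and 73 reads. Genes that do not encode transcription factors were fewer. Aldh1a2, which makes retinoic acid in the embryo, had 5 sites, Shisa3 had a site 131 bp upstream with 35 and 65 reads, and Igf2bp3, an RNA-binding protein of embryonic tissues, had a 1034 bp site 3500 bp upstream with 61 and 78 reads. A group of 7 sites on chromosome 6 lay far from any coding start, 88096 bp from Mir148a at the site with most reads, which held 62 and 85 ChIP reads.

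The sites flanked gene starts more often than they covered them. Of 315 sites, 60 (19%) lay within 1 kb of an annotated start of any gene type, 32 (10.2%) were in exons, 107 (34%) in introns and 116 (36.8%) between genes. Counting protein-coding starts alone, 43 sites (13.7%) lay within 1 kb but 181 (57.5%) within 5 kb and 227 (72.1%) within 10 kb. The median distance was 3769 bp. Downstream positions were more common, with 205 sites past the nearest coding start, 109 before it and 1 covering it. In the anti-RelA lists at 6 h the median distances were 28938 and 29102 bp, against 3788 and 3604 bp at 0 h.

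**Figure D3:**
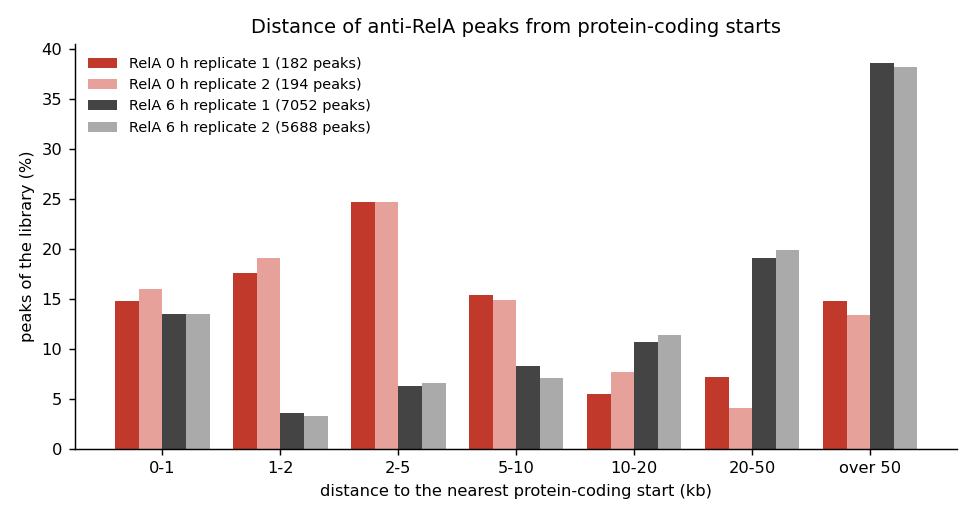
Share of the peaks of each anti-RelA library (vertical axis, %) by distance to the nearest protein-coding start (horizontal axis, kb). At 0 h (red) the fullest class is 2 to 5 kb with 24.7% of peaks in both libraries, while at 6 h (grey) it is over 50 kb with 38.6% and 38.2%.

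Position was compared between times over libraries, with all 8 lists in an exact permutation test (two-sided, 4 against 4, smallest possible p = 0.0286). The share of peaks within 1 kb of any start was 10.7% ± 10.8 (SD, n = 4) at 0 h and 13.6% ± 1.72 (n = 4) at 6 h, a difference of -2.87 percentage points (exact permutation p = 0.6, adjusted p = 0.6 over 3 measures). The 0 h mean joined unlike lists. The anti-RelA libraries stood at 19.8% and 20.1% at 0 h and 14.9% and 15.1% at 6 h, with no overlap, while the anti-RelB libraries at 0 h stood at 2.86% and 0% on only 35 and 14 peaks. With the anti-RelA libraries alone the difference was 4.9 points, where 2 against 2 cannot give a p below 0.333. When each 6 h list was cut to as many best-ranked peaks as its 0 h counterpart had, the anti-RelA libraries at 6 h stood at 17.6% and 18.6%, and the difference over all 8 libraries was -0.493.

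CpG-rich sequence was common at the sites and around them. A 300 bp window was called CpG-rich when at least 50% of its bases were G or C and its observed over expected CG ratio was at least 0.6. By this measure 72 of the 315 sites (22.9%, Wilson 95% interval of counting error 18.6% to 27.8%) were CpG-rich. The interval treats sites as independent, although 229 of the 315 lay in loci with 2 or more sites. The share was 48% of windows at protein-coding starts and 0.84% of 254568 windows spaced evenly along the genome. A CpG-rich window lay within 2 kb of 236 sites (74.9%), of 47 of the 53 sites called in both libraries, and of all 118 sites within 5 kb of a listed regulator. This search tried many windows per site, and the same search was not made at coding starts or along the genome. The counts within 2 kb therefore have no background here.

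**Figure D4:**
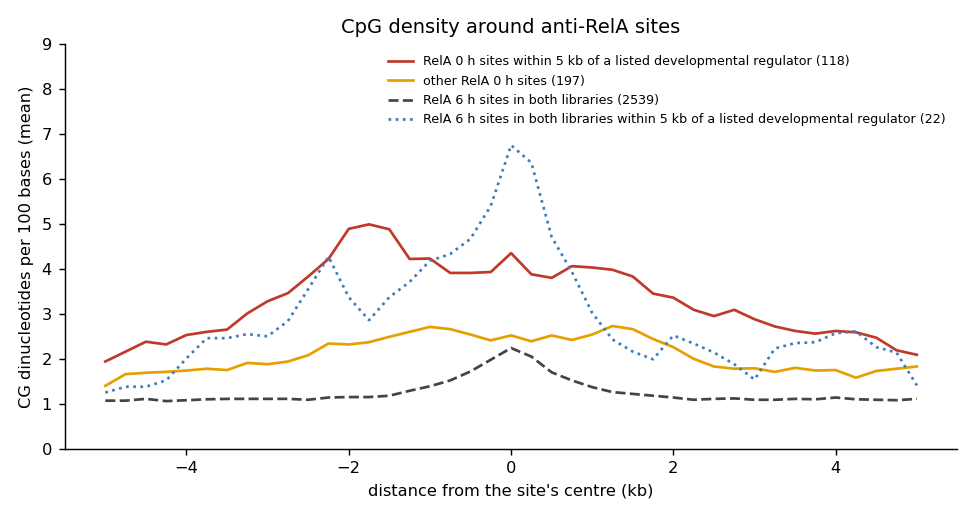
Mean number of CG dinucleotides per 100 bases (vertical axis) in 250 bp steps along the chromosome from the centre of the sites (horizontal axis, kb), for 0 h sites within 5 kb of a listed developmental regulator, the other 0 h sites, the 6 h sites of both libraries and the 22 of these within 5 kb of a listed regulator. At the centre and at 5 kb before and after it, the 0 h developmental sites have 4.35, 1.94 and 2.09, and the other 0 h sites 2.52, 1.4 and 1.83. All 6 h sites have 2.24, 1.07 and 1.11, and the 22 6 h developmental sites 6.75, 1.25 and 1.41. The 0 h developmental sites are highest away from the centre, with 4.99 at -1750 bp.

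High CpG density near listed regulators was thus found at 6 h as well as at 0 h. The CpG-rich share was 23.6% and 24.2% in the anti-RelA libraries at 0 h and 10.6% and 10.2% at 6 h, and the 2 times did not overlap. Over all 8 libraries the means were 12.7% ± 13 and 8.81% ± 1.83, a difference of 3.86 points (exact permutation p = 0.543, adjusted p = 0.6). The anti-RelB libraries at 0 h were again the low ones, at 2.86% and 0%. With equal numbers of peaks the difference over all 8 libraries was 0.272, and the anti-RelA libraries at 6 h stood at 11.5% and 12.4%.

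The κB consensus, the 10 bp element that NF-κB dimers recognise, was looked for on either strand up to 100 bp to each side of the centre. It was found at 50 of 315 sites (15.9%). The same search gave 21.1% of windows at protein-coding starts and 9.27% of windows spaced along the genome. Per library the share was 14.8% and 14.9% of peaks at 0 h, against 49.3% and 53.3% at 6 h. Of the sites called in both 0 h libraries, 6 of 53 (11.3%) had a match, among them GGACTTTTCC at Alx1 (chr10:102490110-102490119, minus strand) and GGGCTATCCC at Alx4 (chr2:93487151-93487160, plus strand). A match is a description of letters and does not show a bound site.

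Over all 8 libraries the share of peaks with a κB match was 17.4% ± 7.59 (SD, n = 4) at 0 h and 54.6% ± 4.62 (n = 4) at 6 h. All 4 libraries at 0 h, at 11.4% to 28.6%, were below all 4 at 6 h, at 49.3% to 60.4%. The exact permutation test gave p = 0.0286, the smallest this design allows, and 0.0857 after adjustment over the 3 measures, which does not pass 0.05. The 0 h mean joined unlike lists, since the anti-RelB libraries at 0 h, at 11.4% and 28.6%, held only 35 and 14 peaks. With the anti-RelA libraries alone the difference was -36.4 points, where 2 against 2 cannot give an exact permutation p below 0.333. Over all 8 libraries the difference was -37.2 points. It was -68.2 when each 6 h list was cut to as many best-ranked peaks as its 0 h counterpart had. There 80.2% and 80.9% of the anti-RelA peaks at 6 h held a match. That setting places the best-ranked 6 h peaks beside all 0 h peaks, so the 2 sides differ in rank as well as in time.

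Motifs of other factors were described in the same windows, with matches counted for each motif separately even where they overlapped. TGANTCA, the element of AP-1, was found at 7 sites (2.22%), against 4.16% at coding starts and 5.93% along the genome, and in 13.2% and 13.9% of the anti-RelA peaks at 6 h. GGGCGG, the core of the Sp1 element, was found at 32 sites (10.2%), against 40% at coding starts and 1.97% along the genome. TAATTA, a core bound by many homeodomain proteins, was found at 25 sites (7.94%), against 2.01% and 7.22%.

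At 6 h of TNF, 44 of the 315 sites (14%) overlapped a peak of either anti-RelA list, 34 in replicate 1 and 14 in replicate 2. From the side of the 6 h lists, 32 of 7052 peaks (0.454%) and 13 of 5688 (0.229%) overlapped a 0 h site. The count depended on how near a peak had to lie: within 500 bp it was 30.2% of the sites. It also depended on replicate 1 of the 6 h libraries, without which it was 4.44%. Sites called in both 0 h libraries were on the 6 h lists in 18 of 53 cases (34%) and sites of 1 library in 26 of 262 (9.92%). The former were also longer (median 432 bp against 30 bp), and a longer site is more easily touched by a peak. The 2 shares were not adjusted for length. For the sites within 5 kb of a listed regulator the count was 19 of 118 (16.1%). Lists at both times were called against the same input, so no test of this overlap was made.

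All 4 anti-RelA libraries called 4 of the sites. Foxl2 was the strongest of them at 6 h, with 23 and 54 ChIP reads and log2 folds of 3.21 and 3.53, close to its 0 h folds of 3.43 and 3.81. Nkx2-3 had 14 and 12 reads at 6 h and log2 folds of 3.58 and 1.78, so its replicates at 6 h differed by more than those at 0 h. The site nearest Gm10837, which lies 13803 bp from Zic2, held 38 and 57 reads at 0 h with log2 folds of 2.36 and 3.08, and 16 and 13 reads at 6 h with 2.57 and 1.78. An intronic site 1243 bp upstream of Gata6, a gene of heart and endoderm, held 17 and 29 reads at 0 h (2.23 and 3.26) and 13 in each library at 6 h (1.87 and 1.89). None of these 4 genes is an NF-κB response gene of the list used here.

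**Figure D5:**
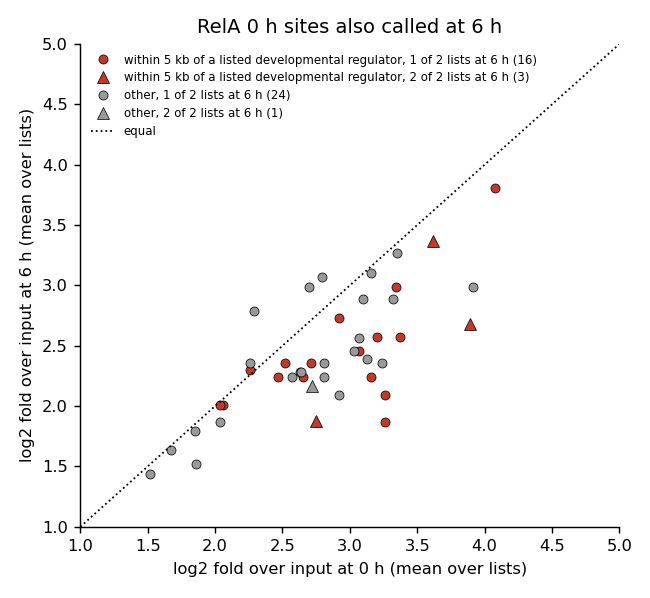
Log2 fold over input at 6 h (vertical axis) against that at 0 h (horizontal axis), each the mean over the anti-RelA lists that called the site, for the 44 sites with a peak at both times. Of the 44 points, 39 lie below the dotted line of equality, the triangles are the 4 sites called in both libraries at 6 h, and red marks sites within 5 kb of a listed developmental regulator.

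At these 44 sites the median log2 fold was 2.81 at 0 h and 2.36 at 6 h, and 39 were higher at 0 h. Each value is the mean over the lists that called the site, and the 0 h values helped to choose the sites, so the difference is a description. Sites that recurred at 6 h had held more reads before TNF, with medians of 32 and 31 ChIP reads against 16 and 17 at the sites that did not recur. Site length was not taken into account. Of the 315 sites, 8 (2.54%) had a RelB peak at 0 h and 10 (3.17%) at 6 h. The RelB lists at 0 h held only 35 and 14 peaks, 46 sites when merged, which limited how high the 0 h count could be. Other reasons for the low count were not tested. None of the 118 sites within 5 kb of a listed regulator had a RelB peak at either time, where 0 of 118 has a Wilson 95% interval up to 3.15%. This interval treats the sites as independent, although many shared a locus. Of the 5192 and 6698 anti-RelB peaks at 6 h, 0.52% and 0.582% lay that near a listed regulator.

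A smaller group of sites lay in repeated sequence. The 32 sites of this group (10.2% of all) had at least 1 further place in mm9 that matched at least 80% of a 300 bp window at 90% identity or more, and 12 of them were on chromosome X or Y. They included clusters near Vmn2r121 on X, Gm3395 on Y, and in the gene desert beside Nlgn1 on chromosome 3. Their median log2 fold was 1.59 in replicate 1 and 1.86 in replicate 2, against 2.71 and 2.81 at sites near listed regulators, and their median input reads were 14 and 8.5, against 6 and 6. Only 1 of the 32 was called in both libraries. All 8 of the 0 h anti-RelA sites that overlapped a RelB peak at 0 h belonged to this group, 7 of them on X or Y. None of the 118 sites near listed regulators had such a copy. Without the copy sites and the sex chromosomes 282 sites remained, of which 52 were called in both libraries and 41 (14.5%) were on a 6 h anti-RelA list.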

How the data were processed

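The authors removed adapters with cutadapt, trimmed bases of quality below 20, aligned single-end reads to mm9 with Bowtie and kept unique alignments. Their peak caller was cisGenome (200 bp windows, at least 4 reads, FDR below 0.1, fold above 2), run on each ChIP library separately against 1 Nfkb2-/- input joined from replicates. Tool versions and the build are given as far as the labels name them. The deposited lists hold, for each peak, an FDR (a q-value of the call), the log2 fold over scaled input of the fullest window, and raw counts of ChIP and input reads in the peak. All 8 lists were used and the input list was not used here. None of their peaks lay outside the stated thresholds or beyond the mm9 chromosomes. Total reads per library are unknown, so a site missing from a list is not shown to be unbound, and ChIP reads in the 0 h anti-RelA peaks can be compared only within a library. Intervals cover counting error only and treat sites as independent, although many sites shared a locus, so they may be too narrow.

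Peaks of the 2 anti-RelA libraries at 0 h were merged where they overlapped by 1 bp or more, and overlap with another list also meant 1 bp. Distances run from the nearest edge of a site to a gene start in the GENCODE annotation of mm9, with 37310 gene records, of which 22380 are protein-coding with 22238 symbols. A site was named by its nearest start. The genes named were those of both-library sites with most reads, sites in all 4 anti-RelA libraries, sites within 5 kb of a listed developmental regulator (both libraries first), the edge of the threshold, and 1-library sites with most reads. No site met the rule for NF-κB response genes. One of the sites so chosen is not reported here. Members, lists and tests were chosen with earlier results of these data known. Older gene symbols were matched through RefSeq synonyms, for names only.

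Shares of peaks were compared between 0 h and 6 h over libraries by exact permutation tests (two-sided, Benjamini-Hochberg adjustment over 3 measures), which were checked on simulated data with known answers. Sequences were read from the mm9 genome with pysam 0.24.0, and copies were sought with minimap2 2.31, with up to 200 further alignments kept. Calculations used Python 3.11.15, numpy 2.4.6, pandas 2.3.3 and scipy 1.17.1. Library, FDR, distance and window settings were varied, with effects given in the closing section.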

Additional observations from a re-analysis of the deposited data

Results flagged for a closer look

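The antibodies moved in opposite directions between 0 h and 6 h for the share of peaks within 1 kb of a gene start. The 0 h minus 6 h difference was 4.9 percentage points for RelA, with both 0 h libraries above both 6 h libraries, and -10.6 points for RelB, with both 0 h libraries below. The share of peaks in a CpG-rich window did the same, with a difference of 13.5 points for RelA and -5.82 points for RelB. The difference between the antibodies was not tested. The RelB lists at 0 h held 35 and 14 peaks, 18 of the 49 on chromosome X or Y and none within 5 kb of a listed developmental regulator. With each 6 h list cut to the number of peaks of its 0 h counterpart, the start-site shares at 6 h were 17.6% and 18.6% for RelA, still below 19.8% and 20.1% at 0 h. For RelB they were 8.57% and 0% at 6 h against 2.86% and 0% at 0 h, so the RelB times no longer stood apart. The CpG-rich shares at 6 h were then 11.5% and 12.4% in the RelA lists. They were 11.4% and 14.3% in the RelB lists, and for neither antibody did the times overlap.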

How the results depend on the processing

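Of the comparisons over libraries, the κB difference stayed negative under every setting tried and none passed 0.05 after adjustment. With the replicate block, which exchanges only same-numbered libraries of 1 antibody, it was -37.2 points (exact permutation p = 0.125, the smallest possible). The block left the start-site and CpG differences at -2.87 and 3.86. Same-numbered libraries deviated the same way in 4 of 6 cases, and the labels do not say what a number marks. With equal numbers of peaks the start-site, CpG and κB differences were -0.493, 0.272 and -68.2, with the best-ranked 6 h peaks set beside all 0 h peaks. The start-site difference reversed to 4.9 points with RelA libraries alone and ran from -6.01 to 0.693 when 1 library was left out, the positive value being without RelB 0 h replicate 2. The CpG difference ran from 0.0139 (without RelA 0 h replicate 2; 0.214 without replicate 1) to 8.09 (without RelB 0 h replicate 2; 7.14 without replicate 1), and the κB difference from -40.9 to -35.2.

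The number of sites was 137 at FDR below 0.01, 218 with peaks within 500 bp merged, and 182 or 194 with 1 library alone (without replicate 2 or without replicate 1). The share called in both libraries was 21.7% at FDR below 0.05 and 28.4% within 500 bp. The share with an anti-RelA peak at 6 h was 9.49% at FDR below 0.01 and 30.2% within 500 bp, and leaving out 1 library gave 4.44% to 14.4%. Sites within 5 kb rather than 1 kb of any start were 62.9%, and within 1 kb of a protein-coding start 13.7%. A κB match within 150 bp was found at 23.2% of sites. Listed developmental regulators with a site numbered 17 within 1 kb, 93 within 50 kb, and 42 or 47 with 1 library alone. The count for NF-κB response genes was 0 under all settings tried, with 0.139% to 1.03% of all coding genes having a site at the distances used, so that a count of 0 in 72 genes is near the background. The copy-free autosomal set was chosen after seeing the data. A planned measure of repeat-masked bases was not run, because the genome sequence used here carries no masking.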

Other observations

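Sites beside imprinted genes were noticed after the values were seen, and no list of such genes was tested. Zdbf2, an imprinted gene, had 3 sites as its nearest coding gene, among them one of 605 bp on chromosome 1, 24097 bp upstream of the start, with 37 and 24 ChIP reads over 8 and 3 input reads. Rasgrf1, which is also imprinted, had 2 sites, both called in both libraries. They lay 27458 and 26690 bp upstream, with 18 and 23 ChIP reads at the first and 14 and 51 at the second. None of these 5 sites was on a 6 h anti-RelA list.

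Of the Hox genes, 3 had a site within 5 kb, beside 0.445% of all protein-coding genes. The Hox genes were not counted as a family of their own, and no test of them as a group was made. Hoxa13 was the nearest coding gene of 4 sites, the one of both libraries with 39 and 15 ChIP reads. Hoxd10 had 2 sites 852 and 383 bp upstream, each in a different library, with 26 and 17 ChIP reads. Hoxc12 had 2 sites 951 and 572 bp upstream, both in replicate 2, with 21 and 14 reads.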
